A study of Homo sapiens with 12 samples.

Results

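Transcripts of 10 genes of cellular iron storage, uptake, export and sensing were followed across 2 human colorectal cancer cell lines with and without lactate. The genes were FTH1, FTL, TFRC, STEAP3, SLC11A2, SLC40A1, NCOA4, ACO1, IREB2 and FBXL5. They were taken by symbol from a table of 54261 gene symbols, and all 10 had enough counts to be among the 17572 genes tested. RNA was sequenced from cells labelled SW480 and DLD1, established lines derived from colorectal tumours. The markers given below leave the identity of the SW480 libraries in doubt, so SW480 means here the libraries with that label. Each line had 3 libraries labelled as treated with lactate and 3 control libraries labelled as without it. Lactate is the end product of glycolysis that tumour cells release and take up. Neither the dose nor the time of treatment is in the labels, and no genetic change beyond the lines themselves is given. The labels call the libraries of a group biological replicates but do not say whether they came from separate cultures, so p-values measure the spread between these libraries, which may be technical.

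Cells take up iron bound to transferrin through the transferrin receptor, reduce it in endosomes, move it into the cytosol, and store what is not used inside ferritin, a shell built from heavy and light subunits. When iron is scarce, the iron regulatory proteins bind hairpins called iron-responsive elements in target mRNAs. Binding in the 5′ untranslated region (UTR), as in ferritin mRNA, blocks translation, and binding in the 3′ UTR of the transferrin receptor mRNA protects it from decay. Proliferating tumour cells need iron for ribonucleotide synthesis and respiration.

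The hairpins are shown because they are the sequence through which the 2 regulatory proteins encoded by ACO1 and IREB2 act on other genes of the set. GENCODE v29 transcripts (GRCh38) were searched on the transcript strand for a C, then 5 bases, the loop CAGTGN (N is any base) and 5 bases that pair with the first 5 (Watson-Crick or G-T). All 7 matches in the set are printed 5′ to 3′, with the loop CAGTGN in capitals.
FTH1 5′ UTR, chr11:61967575-61967601, minus strand: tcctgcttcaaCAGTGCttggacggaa
FTL 5′ UTR, chr19:48965336-48965362, plus strand: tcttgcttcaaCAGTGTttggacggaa
SLC40A1 5′ UTR, chr2:189580662-189580688, minus strand: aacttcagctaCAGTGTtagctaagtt
TFRC 3′ UTR, chr3:196050980-196051006, minus strand: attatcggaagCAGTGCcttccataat
TFRC 3′ UTR, chr3:196050576-196050602, minus strand: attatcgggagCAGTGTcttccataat
TFRC 3′ UTR, chr3:196050511-196050537, minus strand: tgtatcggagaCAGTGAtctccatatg
TFRC 3′ UTR, chr3:196050464-196050490, minus strand: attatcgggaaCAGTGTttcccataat

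The FTH1 match lay in 5 of its 6 transcripts, and the 4 TFRC matches in 3 of 3. The same pattern was found in the 5′ UTR of 31 of 19000 genes (0.163%) and in the 3′ UTR of 128 of 19115 (0.67%), of which 5 had 2 or more. Among 5′ UTRs within 20% of the length of that of FTH1 it was found in 3 of 3441 (0.0872%). Among 3′ UTRs within 20% of the length of that of TFRC it was found in 18 of 2286 (0.787%), and 2 of them had 2 or more. STEAP3, SLC11A2, NCOA4, ACO1, IREB2 and FBXL5 had no match. A match describes these letters only, and the lack of one does not show that a gene has no such hairpin. The same strict pattern also missed EPAS1 and CDC42BPA, which were listed beforehand as transcripts with known iron-responsive elements.

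Library totals ran from 12302311 to 22662063 counts. DLD1 control 2 and DLD1 control 3 stood apart: the log2 difference from the other 2 libraries of the group had a standard deviation (SD) of 0.537 and 0.442 over 12034 genes, against at most 0.261 in the other 10 libraries. These differences followed the GC content of transcripts in opposite directions, with Spearman's rho of -0.79 for control 2 and 0.82 for control 3. The 3 differences of a group sum to 0, so opposite signs are in part fixed by this measure. DLD1 expressed the epithelial markers EPCAM, CDH1 and CDX2 at 701, 695 and 138 CPM (counts scaled to the library total) in controls. The libraries labelled SW480 held EPCAM at 0.964, CDH1 at 1.45, CDX2 at 0.124 and VIL1 at 0.0464 CPM in controls, and keratin KRT8 at 1316 CPM. They also held the mesenchymal markers VIM, COL3A1 and DCN at 1499, 143 and 81.2 CPM, against 1.75, 3.02 and 0.147 in DLD1 controls. EPCAM, CDH1, CDX2 and VIL1 were thus nearly absent from the SW480 controls, while KRT8, KRT18 (738 CPM) and KRT19 (95.8 CPM) were expressed. The mesenchymal marker PDGFRB did not follow the others, at 3.04 CPM in SW480 and 3.59 CPM in DLD1 controls. Every SW480 result and every contrast between the lines rests on libraries whose identity was not tested further. Erythroid markers, which would mark cells rich in iron for heme, summed to at most 1.099 CPM in any library.

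In SW480 with lactate, FTH1 and STEAP3 rose and TFRC fell, while the other 7 genes were not called. A gene is called where edgeR's quasi-likelihood test gives a Benjamini-Hochberg adjusted p, over all 17572 genes, under 0.05. The 3 calls among 10 genes stand beside 12.4% of all genes called in this comparison, 6.83% higher and 5.59% lower. For 7 of the 10 genes every lactate library lay on 1 side of every control, as was so for 40.8% of all genes. The median log2 fold change of the 10 was 0.01, against -0.0061 over all genes, and the median size was 0.16 against 0.25. In DLD1 none of the 10 was called, beside 0.381% of all genes.

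**Figure D1:**
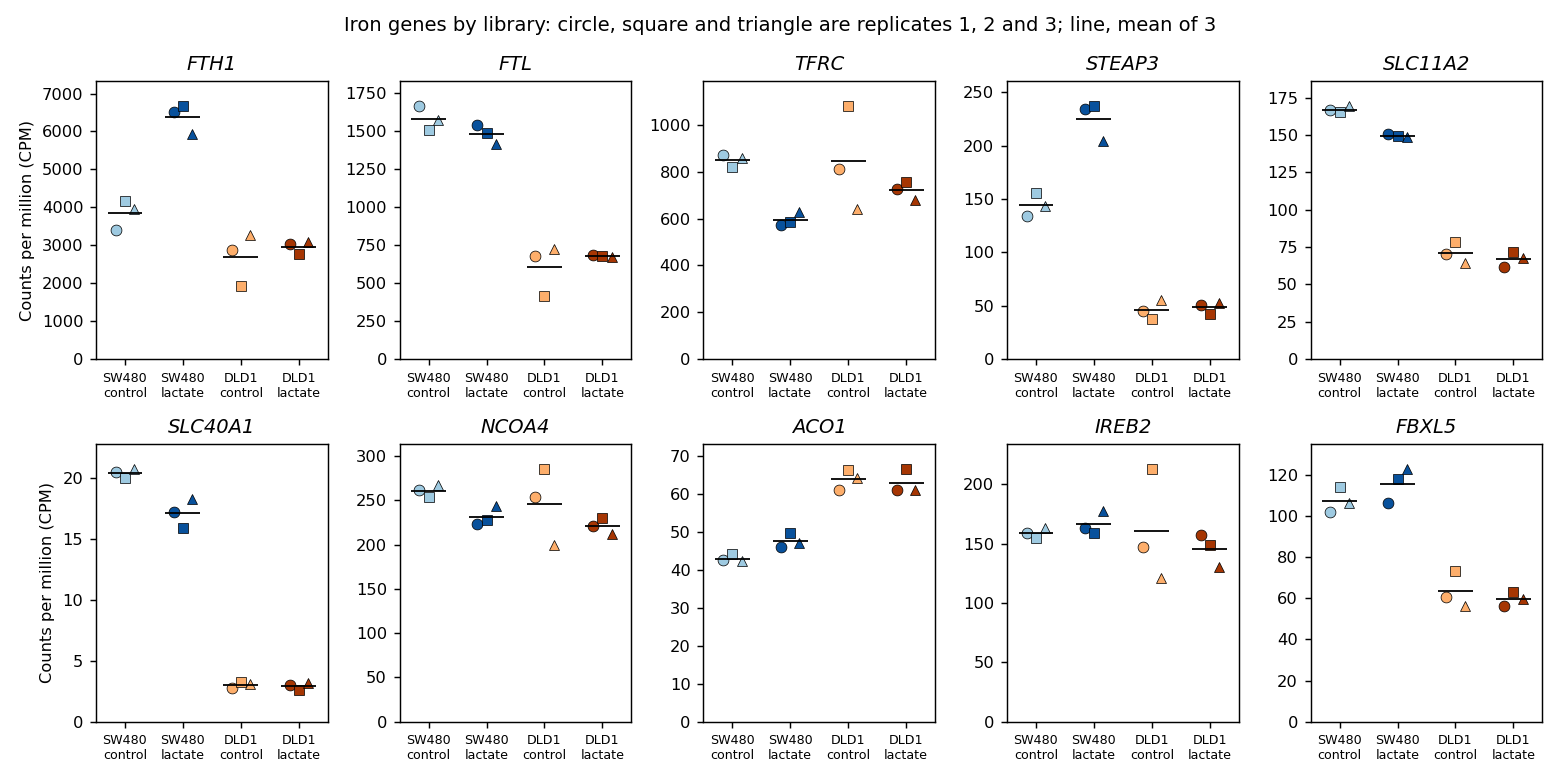
Level of each of the 10 iron genes in CPM (vertical axes, from 0) in the 3 libraries of each of the 4 groups, with the group mean as a line. In SW480 the lactate libraries lie above the controls for FTH1 and STEAP3 and below them for TFRC, and SLC40A1 lies at about 3 CPM in all DLD1 libraries.

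The ferritin heavy subunit gene FTH1 (chromosome 11, 61964285 to 61967634, RefSeq GRCh38.p14) encodes the subunit that oxidises iron for storage. Its level in SW480 controls 1 to 3 was 3413, 4179 and 3946 CPM, and in SW480 lactate libraries 1 to 3 it was 6518, 6664 and 5933 CPM. Every lactate library was above every control. In DLD1 the controls held 2885, 1939 and 3272 CPM and the lactate libraries 3045, 2779 and 3075 CPM, so the groups overlapped, with control 2 the lowest. The group means were 3846 ± 393 and 6372 ± 387 CPM in SW480 and 2699 ± 686 and 2966 ± 163 CPM in DLD1 (SD, n = 3). FTH1 rose 1.69-fold in SW480, a log2 fold change of 0.75 ± 0.15 (SE, edgeR adjusted p = 0.00579), and the log2 fold change in DLD1 was 0.12 ± 0.15 (adjusted p = 0.698). Per kilobase of exon, FTH1 moved from rank 4 to rank 2 of 15411 genes in SW480, and it was at ranks 8 and 5 in DLD1. The SW480 call held under all 23 alternatives, with log2 fold changes of 0.67 to 0.86 and adjusted p of at most 0.0497.

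The light subunit gene FTL (chromosome 19, 48965309 to 48966879) encodes the subunit that helps the iron core form. SW480 controls held 1663, 1508.5 and 1571 CPM, and SW480 lactate libraries 1540.3, 1487 and 1413 CPM. The 2 groups overlapped, and the log2 fold change was -0.07 ± 0.15 (adjusted p = 0.816). In DLD1 the controls held 681, 412 and 727 CPM and the lactate libraries 683, 678 and 671 CPM, with DLD1 control 2 again the lowest library. The log2 fold change there was 0.14 ± 0.15 (adjusted p = 0.637).

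The count ratio of FTH1 to FTL within a library does not depend on library scaling. It was 2.05, 2.77 and 2.51 in SW480 controls and 4.23, 4.48 and 4.20 with lactate, a mean of 2.44 ± 0.364 against 4.30 ± 0.154 (SD, n = 3), so the groups did not overlap. In DLD1 it was 4.48 ± 0.235 in controls and 4.38 ± 0.253 with lactate, near the value of SW480 with lactate. A two-sided exact permutation test gave p = 0.1 in SW480, the smallest that 3 against 3 libraries allow, and p = 0.6 in DLD1. Over the 10 ratio tests made, the adjusted values were 0.25 and 0.857, so none of these ratios could pass a threshold of 0.05 in this design.

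Reads of ferritin genes can be shared with their processed pseudogenes, and how the authors counted such reads is not given in the sources used here. The table held 26 FTH1 pseudogenes, 17 of them above 0, whose counts came to 2.07% to 5.46% of those of FTH1 in a library. It held 19 FTL pseudogenes, 10 above 0, at 0.247% to 0.601% of FTL. The highest were FTH1P8, FTH1P7 and FTH1P2 for FTH1 and FTLP3, FTLP14 and FTLP12 for FTL. No pseudogene with enough counts to be tested was called with lactate in SW480 or DLD1, and the others could not be. In SW480 the log2 fold changes were 0.31 ± 0.28 for FTH1P8, 0.52 ± 0.21 for FTH1P7 and -0.10 ± 0.25 for FTH1P2. The less abundant FTH1P11 was at 1.25 ± 0.41 (edgeR adjusted p = 0.0601). Adding all these counts to the parent genes left the calls of all 10 genes as they were in each of the 4 comparisons. The levels of FTH1 and FTL remain uncertain to the extent that reads were split or dropped between copies.

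The transferrin receptor gene TFRC (chromosome 3, 196049284 to 196082090) encodes the receptor that brings in transferrin-bound iron. SW480 controls held 873, 822 and 859 CPM, and SW480 lactate libraries 574, 586 and 629 CPM. All 3 lactate libraries were below all 3 controls. TFRC fell by 0.49 ± 0.14 on the log2 scale, 1.41-fold lower (adjusted p = 0.0396), from 852 ± 26.2 to 596 ± 28.6 CPM (SD, n = 3). In DLD1 the controls held 814, 1081 and 640.4 CPM and the lactate libraries 729, 758 and 679 CPM, so the lactate libraries lay inside the range of the controls, with a log2 fold change of -0.25 ± 0.14 (adjusted p = 0.351). In RNA from whole cultures, fewer cells with a transcript and less of it per cell cannot be told apart.

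The TFRC call in SW480 was narrow. It was lost under median-of-ratios scaling (adjusted p = 0.0534). Without SW480 controls 1, 2 and 3 in turn the adjusted p was 0.139, 0.0725 and 0.0996, and without SW480 lactate libraries 1, 2 and 3 it was 0.119, 0.137 and 0.104. It was also lost without DLD1 control 1 (0.0537) and without DLD1 lactate libraries 1, 2 and 3 (0.0573, 0.0530 and 0.0554). The call held in the other 12 of 23 alternatives, and the log2 fold change stayed between -0.53 and -0.45 in all of them. In DLD1 without control 3, TFRC had a log2 fold change of -0.42 ± 0.11 (adjusted p = 0.0160), in a fit that called 3791 of 18063 genes against 67 of 17572 with all libraries.

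STEAP3 (chromosome 2, 119223834 to 119265652) encodes an endosomal reductase that turns ferric into ferrous iron after transferrin uptake. SW480 controls held 134, 156 and 144 CPM and SW480 lactate libraries 234, 237 and 205 CPM. The groups did not overlap, and STEAP3 rose 1.59-fold, by 0.67 ± 0.13 on the log2 scale (adjusted p = 0.00555). DLD1 controls held 44.7, 37.6 and 55.0 CPM and DLD1 lactate libraries 51.0, 42.4 and 52.5 CPM, which overlapped, with a log2 fold change of 0.07 ± 0.14 (adjusted p = 0.825). The SW480 call held under all 23 alternatives, with log2 fold changes of 0.60 to 0.77 and adjusted p of at most 0.0476.

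SLC11A2 (chromosome 12, 50952263 to 51028886), which encodes the divalent metal transporter that moves ferrous iron across the endosomal and apical membranes, showed a small but tight shift in SW480. Controls held 166.5, 165.5 and 169 CPM and lactate libraries 151, 149 and 149 CPM. These groups did not overlap, yet the log2 fold change of -0.14 ± 0.10 was not called (adjusted p = 0.404). In DLD1 the controls held 70.3, 78.6 and 64.5 CPM and the lactate libraries 61.5, 71.5 and 67.4 CPM, which overlapped (-0.11 ± 0.10, adjusted p = 0.533). The endosomal uptake genes thus did not move together in SW480: TFRC fell, STEAP3 rose and SLC11A2 was not called.

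SLC40A1 (chromosome 2, 189560590 to 189580786) encodes ferroportin, the iron exporter. SW480 controls held 20.5, 19.996 and 20.7 CPM and lactate libraries 17.2, 15.9 and 18.3 CPM, all below the controls. The log2 fold change of -0.23 ± 0.12 was not called (adjusted p = 0.231). DLD1 controls held 2.78, 3.28 and 3.07 CPM and lactate libraries 3.03, 2.58 and 3.13 CPM, which overlapped (-0.08 ± 0.15, adjusted p = 0.832). These DLD1 levels rest on 49 to 71 counts per library.

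NCOA4 (chromosome 10, 46005088 to 46030623) encodes the receptor that carries ferritin to the lysosome for release of its iron. SW480 controls held 261, 254 and 267 CPM and lactate libraries 223, 228 and 243 CPM, with no overlap, and the log2 fold change of -0.15 ± 0.12 was not called (adjusted p = 0.436). DLD1 controls held 254, 285 and 199 CPM and lactate libraries 221, 230.1 and 211 CPM, which lay inside the range of the controls. Their log2 fold change was -0.18 ± 0.12 (adjusted p = 0.398), and without DLD1 control 3, where 3791 of 18063 genes were called, it was -0.32 ± 0.09 (adjusted p = 0.0198). The ratio of TFRC to NCOA4, an uptake gene and a ferritin turnover gene, was 3.34, 3.24 and 3.22 in SW480 controls and 2.58, 2.57 and 2.58 with lactate. Its SD across the SW480 lactate libraries was 0.00590, the smallest of the ratios in that group. In DLD1 this ratio was 3.404 ± 0.334 in controls and 3.27 ± 0.0498 with lactate (exact permutation p = 0.1 in SW480 and 0.9 in DLD1, adjusted 0.25 and 0.9).

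**Figure D2:**
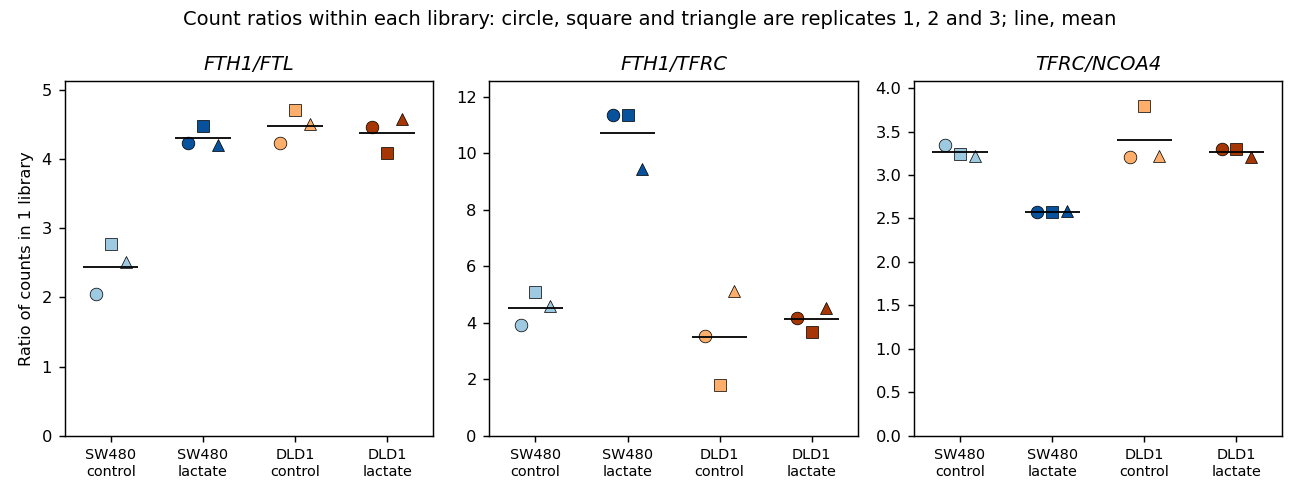
Ratios of counts within each library (vertical axes, from 0) for FTH1 to FTL, FTH1 to TFRC and TFRC to NCOA4, 3 libraries per group with the mean as a line. FTH1 to TFRC had means of 4.53 in SW480 controls and 10.7 with lactate, without overlap, and of 3.48 and 4.13 in DLD1, where the groups overlapped.

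FTH1 and TFRC changed in opposite directions in SW480, while FTL was not called and STEAP3 rose. The ratio of FTH1 to TFRC was 3.91, 5.08 and 4.59 in controls and 11.4, 11.4 and 9.44 with lactate, 2.37-fold higher. In DLD1 it was 3.54, 1.79 and 5.11 in controls and 4.18, 3.66 and 4.53 with lactate. The DLD1 controls spanned the whole range of the lactate libraries, with control 2 lowest and control 3 highest. The ratio of FTL to TFRC had means of 1.86 and 2.49 in SW480, without overlap, and of 0.784 and 0.940 in DLD1, with overlap (exact permutation p = 0.1 and 0.7, adjusted 0.25 and 0.875).

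The genes of the iron sensors were not called in SW480 or in DLD1. ACO1 (chromosome 9, 32384643 to 32454769) encodes iron regulatory protein 1, which acts as cytosolic aconitase when it holds an iron-sulfur cluster. SW480 controls held 42.7, 44.1 and 42.3 CPM and lactate libraries 46.1, 49.9 and 47.2 CPM, with no overlap but no call (0.17 ± 0.09, adjusted p = 0.244). In DLD1 the controls held 61.2, 66.3 and 64.2 CPM and the lactate libraries 61.3, 66.7 and 61.0 CPM, nearly the same range (-0.04 ± 0.09, adjusted p = 0.817).

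IREB2 (chromosome 15, 78437431 to 78501453) encodes iron regulatory protein 2, which is controlled by degradation. SW480 controls held 159, 155 and 163 CPM and lactate libraries 163, 159 and 178 CPM, which overlapped (0.09 ± 0.16, adjusted p = 0.763). DLD1 controls held 147, 213 and 121 CPM and lactate libraries 157, 148 and 129.95 CPM (-0.17 ± 0.16, adjusted p = 0.568). Control 2 was the highest and control 3 the lowest of the 6 DLD1 libraries. The ratio of ACO1 to IREB2 overlapped between control and lactate in both lines, at 0.271 and 0.287 in SW480 and 0.420 and 0.436 in DLD1 (exact permutation p = 0.5 and 0.8, adjusted 0.857 and 0.889).

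FBXL5 (chromosome 4, 15604381 to 15681569) encodes the iron-binding subunit of the ubiquitin ligase that degrades iron regulatory protein 2. SW480 controls held 102, 114 and 106 CPM and lactate libraries 106, 118 and 123 CPM, which overlapped (0.13 ± 0.11, adjusted p = 0.493). DLD1 controls held 60.6, 73.6 and 56.5 CPM and lactate libraries 56.3, 63.3 and 59.5 CPM, which overlapped too (-0.11 ± 0.11, adjusted p = 0.593).

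**Figure D3:**
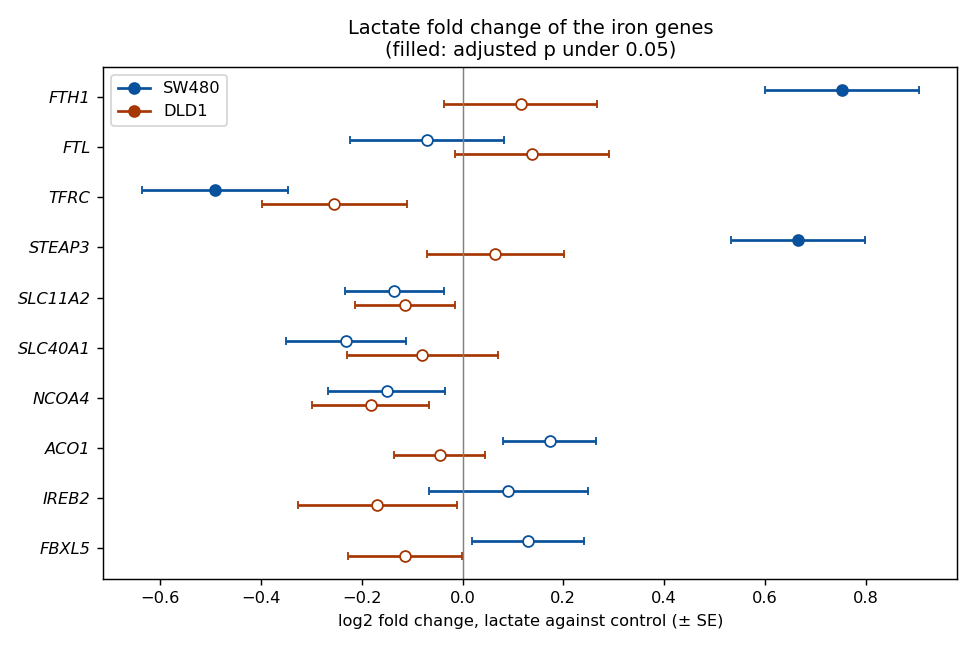
Log2 fold change with lactate (horizontal axis) and its standard error for the 10 iron genes in SW480 and DLD1, filled where the adjusted p is under 0.05. FTH1 (0.75), STEAP3 (0.67) and TFRC (-0.49) are called in SW480, and none is called in DLD1, where values run from -0.25 to 0.14.

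Across the 10 genes, DLD1 had 0 calls in edgeR and 0 at an unadjusted p under 0.05 (18.5% of all genes). It also had 0 in DESeq2 (beside 683 of 17572 genes). The 2 groups of DLD1 libraries overlapped for all 10, while 18.8% of all genes had groups without overlap. The median log2 fold change was -0.10, against 0.017 over all genes, with adjusted p from 0.351 to 0.832. The DLD1 controls that stood apart differed from the others of their group for several of these genes. In control 2, relative to the other 2 controls, FTH1 and FTL differed by -0.65 and -0.75 on the log2 scale and TFRC and IREB2 by 0.60 and 0.69. In control 3, FTH1 and FTL differed by 0.44 and 0.43 and TFRC and IREB2 by -0.58 and -0.58. The transcripts of TFRC and IREB2 had a GC content of 41.5% and 38.5%, and those of FTH1 and FTL 52.0% and 56.3%. For the remaining genes, the GC content and the differences in controls 2 and 3 follow in that order. They were 40.7%, 0.35 and -0.27 for FBXL5, 42.4%, 0.18 and -0.0055 for SLC40A1, and 44.2%, 0.24 and -0.23 for SLC11A2. NCOA4 had 46.1%, 0.36 and -0.46, ACO1 47.7%, 0.10 and -0.019, and STEAP3 57.6%, -0.38 and 0.39. Across 12034 genes the DLD1 lactate fold changes followed GC content at a Spearman rho of 0.70, against 0.04 in SW480. The part of GC content in the differences of these genes was not tested.

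Whether lactate acted differently in the 2 lines was tested directly as the difference of the log2 fold changes, DLD1 minus SW480. None of the 10 genes was called, beside 0.728% of all genes (0.324% higher and 0.404% lower). At an unadjusted p under 0.05 there were 2 of 10, FTH1 and STEAP3, beside 16.8% of all genes, and DESeq2 called 1 (beside 712 of 17572 genes) and limma-voom 0 (beside 94). The difference was -0.64 ± 0.21 for FTH1 (adjusted p = 0.161), -0.60 ± 0.19 for STEAP3 (0.146), 0.24 ± 0.20 for TFRC (0.567) and 0.21 ± 0.22 for FTL (0.639). The range of the differences over all 10 genes was -0.64 to 0.24.

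Some alternatives did call the difference for FTH1, STEAP3 and TFRC. Without DLD1 control 2 the difference was called for FTH1 at -0.83 ± 0.14 (adjusted p = 0.00295) and for STEAP3 at -0.72 ± 0.15 (adjusted p = 0.0123), beside 596 of 18105 genes called. With the trend along GC content and length removed within each library it was called for FTH1 at -0.76 (adjusted p = 0.00314), for STEAP3 at -0.76 (8.79e-05) and for TFRC at 0.45 (0.00624), beside 1441 of 17572 genes. FTH1 was also called with DLD1 controls 2 and 3 both left out (-0.75, 0.00950) and with no filter on low counts (-0.64, 0.00341), beside 627 of 18994 and 837 of 36138 genes. STEAP3 was also called with no filter (-0.60, 0.0400) and in DESeq2 (-0.63, 0.0394). The difference was called in 4 of 22 alternatives for FTH1, 4 of 22 for STEAP3 and 1 of 22 for TFRC.

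**Figure D4:**
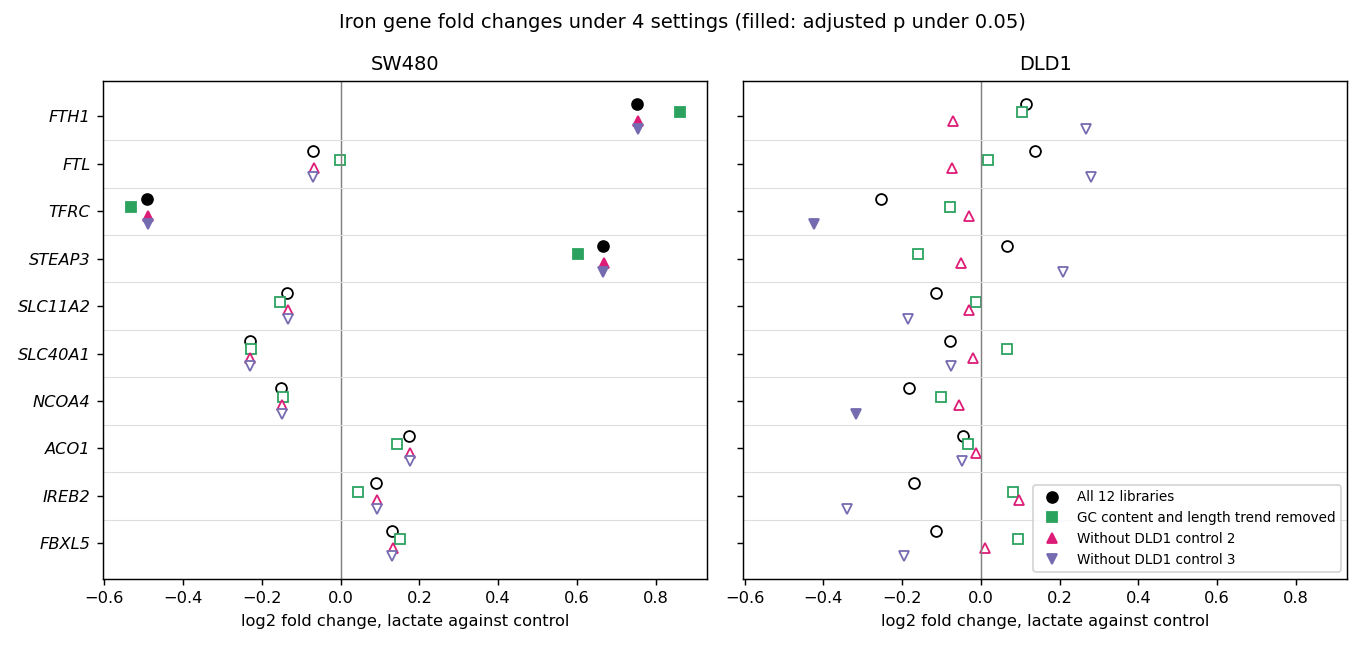
Log2 fold change with lactate (horizontal axes) of the 10 iron genes in SW480 and DLD1 under 4 settings, filled where the adjusted p is under 0.05. SW480 values move little, with FTH1 at 0.75 to 0.86, but the libraries left out here are DLD1 controls, outside the SW480 contrast. With single libraries of either line left out, FTH1 in SW480 ran from 0.67 to 0.84. In DLD1 the genes shift with the control library left out, TFRC from -0.03 without control 2 to -0.42 without control 3.

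More genes differed between the lines than with lactate. Between the controls, DLD1 had lower levels than SW480 of FTH1, FTL, STEAP3, SLC11A2, SLC40A1 and FBXL5 and a higher level of ACO1. These 7 calls of 10 stand beside 70.8% of all genes called between the lines, 33.6% higher in DLD1 and 37.3% lower. At an unadjusted p under 0.05 the same 7 passed, beside 72.9% of all genes. The library groups did not overlap for 7 of the 10, beside 70.6% of all genes. The median log2 difference of the 10 was -0.70, against -0.05 over all genes.

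The exporter SLC40A1 differed most, at 3.04 ± 0.253 CPM in DLD1 and 20.4 ± 0.362 CPM in SW480 controls (SD, n = 3), 7.02-fold lower (log2 -2.81 ± 0.14, adjusted p = 7.76e-11). STEAP3 was 3.31-fold lower in DLD1 (-1.72 ± 0.14, adjusted p = 2.93e-08), FTL 2.73-fold lower (-1.45 ± 0.16, adjusted p = 8.66e-07) and SLC11A2 2.46-fold lower (-1.30 ± 0.10, adjusted p = 1.89e-08). FBXL5 was 1.77-fold lower (-0.82 ± 0.11, adjusted p = 1.16e-05) and FTH1 1.49-fold lower (-0.58 ± 0.15, adjusted p = 0.00332). ACO1 was 1.42-fold higher (0.51 ± 0.09, adjusted p = 1.74e-04). The 7 calls held under all 22 alternatives. TFRC, NCOA4 and IREB2 had log2 differences of -0.07, -0.15 and -0.05 (adjusted p of 0.664, 0.267 and 0.786), and all 3 were called as lower in DLD1 once DLD1 control 2 was left out (-0.29, -0.26 and -0.31, adjusted p of 0.0124, 0.0170 and 0.00743), where 13260 of 18105 genes were called.

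On the scale of CPM per kilobase of exon, which allows levels of different genes to be compared, the order in SW480 controls was FTH1 (2378), FTL (1801), TFRC (160.0), NCOA4 (63.9), FBXL5 (31.8), STEAP3 (31.7), SLC11A2 (22.9), IREB2 (16.7), SLC40A1 (5.92) and ACO1 (5.70). The ranges of libraries overlapped between FBXL5 and STEAP3 and between SLC40A1 and ACO1, and between no other neighbours. With lactate, STEAP3 stood above FBXL5 in SW480, at 49.4 against 34.2, and no neighbours overlapped. In DLD1 controls the order was FTH1 (1669), FTL (691), TFRC (159), NCOA4 (60.3), FBXL5 (18.8), IREB2 (16.9), STEAP3 (10.03), SLC11A2 (9.77), ACO1 (8.46) and SLC40A1 (0.885). There FBXL5 overlapped IREB2 and STEAP3 overlapped SLC11A2. With lactate the order of genes in DLD1 was the same, and STEAP3 overlapped SLC11A2 and SLC11A2 overlapped ACO1. Lengths are of the union of annotated exons, so genes with long minor exons are understated.

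Profiles of the genes over the 12 libraries were compared as the root mean square difference of centred log2 CPM. The closest pair within the set was NCOA4 and IREB2, 0.13 apart, followed by TFRC and NCOA4 at 0.17, and the farthest was SLC40A1 and ACO1 at 1.55. FTH1 and FTL were 0.38 apart. Of 9853 other genes with a mean of at least 10 CPM, those closest to FTH1, whose own spread was 0.56, were DOT1L (0.12), PHF21A (0.14) and NAB2 (0.14). Closest to FTL, with a spread of 0.71, were LRPAP1 (0.083), PROCR (0.089) and FRAT2 (0.096), and closest to TFRC, with a spread of 0.25, were CD46 (0.050), RBM12 (0.079) and BRCC3 (0.086). These distances share the depth and GC trends of the libraries.

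Of 104 other genes of iron handling in 9 lists, 97 were tested. In SW480 with lactate 13 were called (13.4% of those tested, beside 12.4% of all genes), 5 higher and 8 lower, and the median log2 fold change was -0.11. In DLD1 2 were called, both higher (2.06%, beside 0.381% of all genes), with a median of -0.04. The DLD1 count was 30 without DLD1 control 3, beside 3791 of 18063 genes called. It was 2 without DLD1 control 2 (149 of 18105 genes), and 0 or 1 without any single other library (3 to 51 genes). In the difference between lines 0 were called in edgeR, beside 0.728% of all genes, and 15 at an unadjusted p under 0.05, beside 16.8%. Limma-voom, whose count over all genes in the difference is given above, called 0, and DESeq2 called 5. Without DLD1 control 2 the difference had 4 calls (beside 596 of 18105 genes) and without DLD1 control 3 it had 9 (beside 1508 of 18063). DESeq2 called 712 of 17572 genes there.

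Among genes of iron entry and reduction, 1 of 13 tested was called in SW480, and the list's median was -0.05. LRP1, which encodes a receptor that takes up heme bound to hemopexin among many other ligands, rose from 71.9 ± 17.1 to 212 ± 36.2 CPM (log2 1.59 ± 0.21, adjusted p = 3.80e-04). In DLD1, LRP1 went from 25.2 ± 7.43 to 53.3 ± 8.24 CPM, without overlap, and just missed the threshold (1.056 ± 0.21, adjusted p = 0.0503). TF, the gene of transferrin itself, lay at 0.727 to 1.42 CPM across the 12 libraries and was not called with lactate in SW480 or DLD1. The second transferrin receptor gene TFR2 and the zinc and iron transporter gene SLC39A14 had log2 fold changes of -0.05 and -0.05 in SW480 and of 0.01 and -0.19 in DLD1, none called.

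Of 7 tested genes of iron export and the hepcidin axis, 1 was called in each line, with medians of -0.09 in SW480 and 0.54 in DLD1. The values above the DLD1 median were those of CP, BMP6 and TMPRSS6, all low there (BMP6 at 1 to 8 counts per library). BMP6, a signal that induces hepcidin, rose in SW480 from 18.9 ± 2.57 to 34.0 ± 0.507 CPM (log2 0.88 ± 0.16, adjusted p = 0.00380). TMPRSS6, a protease that damps the hepcidin signal, rose in DLD1 from 8, 3 and 6 counts to 31, 28 and 33 counts, or from 0.303 to 1.59 CPM (log2 2.30 ± 0.43, adjusted p = 0.0313), a call that held in 11 of 22 alternatives. HAMP, the hepcidin gene, was at 0 to 0.214 CPM and too low to be tested. The ferroxidase genes CP in SW480 (0.02 ± 0.16) and HEPH in DLD1 (0.54 ± 0.19) were not called with lactate. CP in DLD1 had 0 to 5 counts per library and HEPH in SW480 had 0 to 9, too few for a fold.

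No gene of cytosolic iron chaperones was called with lactate in SW480 or DLD1 (5 tested, medians 0.07 and 0.11). The iron chaperone genes PCBP1 and PCBP2, which deliver iron to ferritin, had log2 fold changes of 0.07 and -0.06 in SW480 and of 0.13 and 0.11 in DLD1. FTMT, mitochondrial ferritin, had 1 count in the 12 libraries together. Of the 4 ligase partners, CUL1, the scaffold of the ligase to which FBXL5 belongs, fell by 0.34 ± 0.09 in SW480 (adjusted p = 0.0241), and HERC2 was at -0.12 and 0.09 in the 2 lines. The list of other transcripts with iron-responsive elements was taken from background knowledge. The search described above found a match in ALAS2 and in CDC14A (there in 1 of 7 transcripts) and none in EPAS1 or CDC42BPA. Of the 4 tested, EPAS1, which encodes the hypoxia factor HIF2-alpha, rose in SW480 from 406 ± 27.9 to 787 ± 20.5 CPM (log2 0.98 ± 0.10, adjusted p = 8.84e-05). EPAS1 in DLD1 was at 48.0 ± 6.14 and 65.9 ± 6.63 CPM, without overlap, and was not called (0.43 ± 0.11, adjusted p = 0.112).

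Of 23 genes of mitochondrial iron import and iron-sulfur cluster assembly, 1 rose and 2 fell in SW480 (median -0.12). SLC25A37, the mitochondrial iron importer mitoferrin 1, rose from 132 ± 9.69 to 203 ± 6.71 CPM (0.65 ± 0.09, adjusted p = 4.35e-04). LYRM4, a partner of the cluster-forming desulfurase, fell by 0.41 ± 0.13 (adjusted p = 0.0476). Of 9 genes of cytosolic cluster assembly, CIAPIN1 fell by 0.36 ± 0.09 (adjusted p = 0.0185) and CIAO1 by 0.35 ± 0.09 (adjusted p = 0.0231), and the list's median was -0.25. No gene of these 2 lists was called in DLD1, where the medians were -0.15 and 0.07.

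Of 18 heme genes, HMOX1 rose and SLC46A1 and UROD fell in SW480 (median -0.14). HMOX1, the heme oxygenase that frees iron from heme, rose from 16.7 ± 1.37 to 24.9 ± 2.46 CPM (0.60 ± 0.14, adjusted p = 0.0124) and was at 14.3 ± 1.53 and 16.2 ± 2.56 CPM in DLD1 (0.15 ± 0.14, adjusted p = 0.566). SLC46A1, a folate and heme carrier, fell by 0.59 ± 0.13 (adjusted p = 0.00870), and UROD, an enzyme of heme synthesis, fell by 0.47 ± 0.14 (adjusted p = 0.0455). No heme gene was called in DLD1 (median 0.06). Of 14 genes of ferroptosis, the iron-dependent form of cell death, LPCAT3 fell by 0.50 ± 0.13 in SW480 (adjusted p = 0.0216) and PROM2, which encodes a protein that exports ferritin in vesicles, rose in DLD1 from 16.2 ± 3.12 to 29.3 ± 1.69 CPM (0.82 ± 0.17, adjusted p = 0.0480). The list's medians were -0.13 and 0.05. SLC7A11, the cystine importer, and GPX4, the enzyme that reduces lipid peroxides, were not called with lactate (-0.42 and 0.18 in SW480, -0.54 and 0.11 in DLD1).

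**Figure D5:**
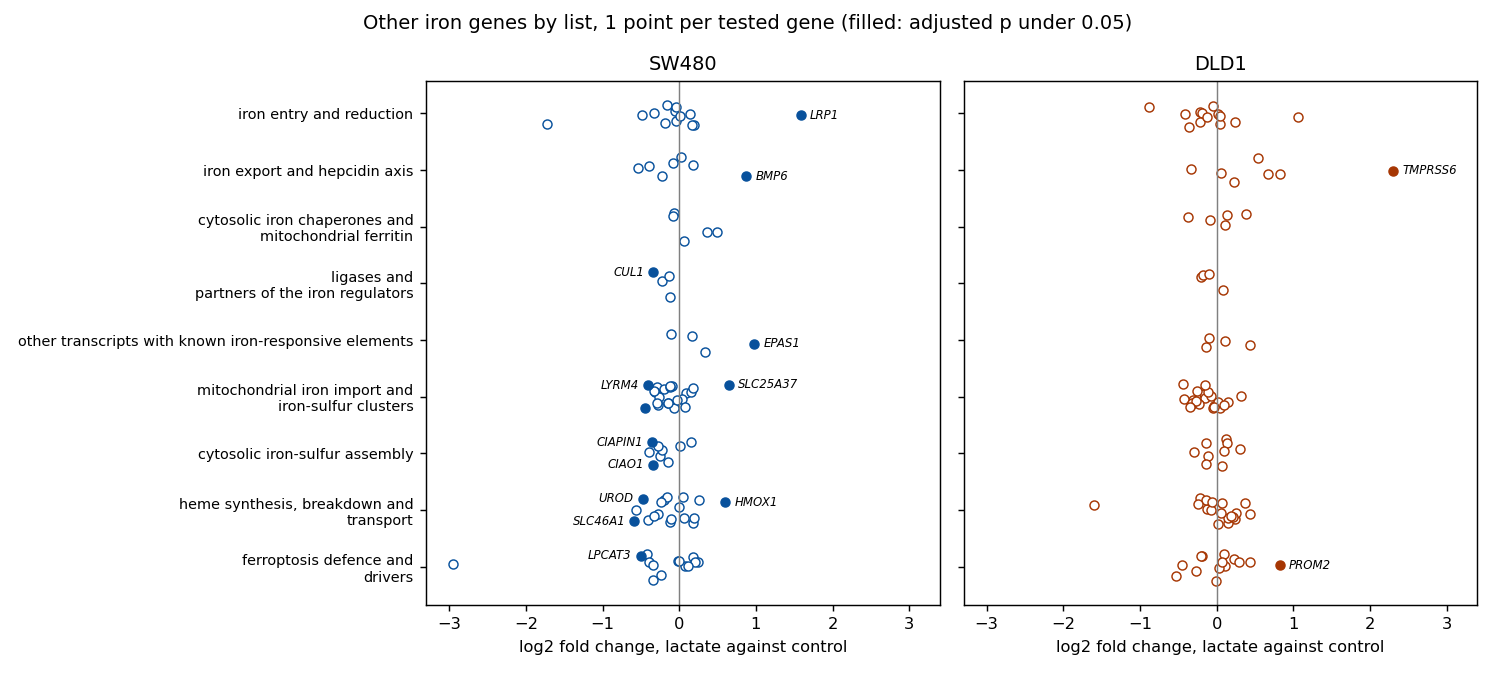
Log2 fold change with lactate (horizontal axes) of the 97 tested other iron genes, 1 point per gene, grouped by list, in SW480 and DLD1; filled points have an adjusted p under 0.05, and the genes reported here are named. SW480 holds 13 filled points, LRP1 the farthest to the right at 1.59, and DLD1 holds TMPRSS6 (2.30) and PROM2 (0.82).

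The rises of LRP1, BMP6, EPAS1 and SLC25A37 in SW480 were called under all 23 alternatives. That of HMOX1 was lost without SW480 control 1 (adjusted p = 0.0736), SW480 control 3 (0.0590) and SW480 lactate 2 (0.0682). Each of the 8 falls was lost under at least 1 alternative, among them SLC46A1 without SW480 lactate 2 (0.0718), LPCAT3 in 4, CIAPIN1, CIAO1 and CUL1 in 6, UROD in 10 and LYRM4 in 13 of 23. All 8 were lost without SW480 lactate 2, where 4 of the other iron genes were called in SW480. That count was 5 without SW480 control 1, 6 without SW480 control 3, 8 without SW480 lactate 1 and 8 without SW480 lactate 3. It was 37 without DLD1 control 2. Over all genes tested the calls moved too, from 12.4% to 4.75% without SW480 lactate 2, 3.83% without SW480 control 1, 6.76% without SW480 control 3, 9.46% without SW480 lactate 1, 6.70% without SW480 lactate 3, 17.1% without DLD1 control 3 and 24.0% without DLD1 control 2. PROM2 held in 12 of 23 in DLD1.

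Between the control groups 61 of the 97 genes were called (62.9%, beside 70.8% of all genes), 27 higher and 34 lower in DLD1. Of the ferroxidases, CP was at 48.0 CPM in SW480 and 0.0852 in DLD1, while HEPH was at 0.216 and 26.2 CPM and HEPHL1 at 0.0407 and 2.89 CPM. Of iron carriers outside transferrin, the ferritin receptor gene SCARA5 was at 181 CPM in SW480 and 0.226 in DLD1, and lipocalin LCN2 at 0.208 and 182 CPM. The transporter gene SLC39A8 was at 770.2 and 38.5 CPM, while its relative SLC39A14 was at 164 and 170.1 CPM and was not called (adjusted p = 0.916), and the reductase gene STEAP4 at 0.166 and 11.03 CPM.

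BMP6 was at 18.9 CPM in SW480 and 0.113 in DLD1 controls, and EPAS1 at 406 and 48.0 CPM. Of the heme genes, CPOX (52.8 and 300.0 CPM) was higher in DLD1, and ABCG2 (73.0 and 3.56 CPM) and SLC46A1 (32.8 and 14.1 CPM) lower. ACSL4, which makes membranes prone to ferroptosis, was at 1160.4 and 62.9 CPM, and SLC7A11 at 506 and 63.2 CPM. GPX4 was at 64.0 and 221 CPM, and PROM2 at 0.171 and 16.2 CPM. In cluster assembly BOLA3 (55.7 and 16.3 CPM), ISCA1 (94.8 and 35.9), LYRM4 (21.9 and 11.8), CIAPIN1 (108 and 65.3), CIAO1 (146 and 130.1) and FAM96B (55.4 and 36.0) were lower in DLD1 and NUBP1 (17.3 and 36.2) and SLC25A37 (132 and 219.9) higher. Of the chaperones and ligase partners, PCBP3 (26.8 and 0.0174) was lower in DLD1 and PCBP1 (232 and 411), PCBP4 (13.3 and 26.5), HERC2 (2.42 and 8.64) and RBX1 (37.4 and 63.0) were higher, as was the phosphatase gene CDC14A (8.06 and 22.9). Values are CPM in SW480 and then in DLD1 controls, and each gene named in this comparison except SLC39A14 was called.

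Of the 3 leukocyte and macrophage markers with enough counts to be tested, only CD68 was called with lactate in SW480. The 5 leukocyte and macrophage markers summed to 33.1 to 52.8 CPM in controls and 87.7 to 106 CPM with lactate, carried by CD68, a lysosomal protein, which rose from 39.6 to 95.4 CPM (log2 1.30, adjusted p = 0.00218). The defining markers PTPRC and CD163 were at 0.0793 and 0.0193 CPM in controls and 0.157 and 0.0409 CPM with lactate. ITGAM was lower with lactate (1.96 and 1.14 CPM) and CSF1R higher (0.422 and 0.825 CPM). The 7 epithelial markers summed to 1948 to 2298 CPM in controls and 1400 to 1665 CPM with lactate, as KRT8 and KRT18 fell and KRT19 rose, and the 5 mesenchymal markers to 1687 to 1833 and 1791 to 1954 CPM. In DLD1 the macrophage markers summed to 3.55 to 7.97 and 9.49 to 13.5 CPM, with PTPRC at 0 in all 6 libraries. Their part in the changes of FTH1, STEAP3 and TFRC was not tested.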

How the data were processed

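The deposited table holds whole-number counts of reads per gene symbol for 12 libraries, which the authors did not normalise; no column was left unused (0 columns). HISAT2 and the GRCh38 build are named in the submitters' processing notes. Its version, the counting tool, the annotation and strand handling are not given in the sources consulted, so reads of overlapping or antisense genes cannot be told apart. Counts were filtered (filterByExpr), TMM-scaled and fitted with edgeR 4.0.16 (R 4.3.3) in 1 robust quasi-likelihood model with 1 mean per group over 12 libraries. In simulated data it called 33.8%, 69.2% and 89.2% of 1.5-fold, 2-fold and 4-fold changes in SW480. The shares in DLD1 were 33.3%, 75.4% and 96.9%. Simulated libraries had no difference between lines and no GC trend, unlike the real ones. The test is two-sided with Benjamini-Hochberg adjustment over 17572 genes. Each SE was obtained by dividing the size of the log2 fold change by the square root of F. CPM uses library totals; profiles use log2 CPM with a prior count of 2. GC content and length come from GENCODE v29.

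All 10 genes were named with every library's value. Of each other list, up to 4 called genes with the smallest p were named, plus 13 fixed genes. The genes, lists and alternatives were chosen with earlier results of these data known. Tried besides were 2 other scalings (upper quartile; median-of-ratios), no filter or one of at least 1 CPM in 3 libraries, limma-voom (limma 3.58.1), DESeq2 1.42.0, a replicate block, each line alone, leaving out each library or DLD1 controls 2 and 3, pseudogene counts added, and a GC and length trend removed (splines with 5 degrees of freedom). Of the genes tested, 87.7% had a GC content. No 2 libraries of a group agreed within sampling noise. Some genes of the other lists are counted but not reported here by name.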

Additional observations from a re-analysis of the deposited data

How the results depend on the processing

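The counts of called iron genes were 2 to 3 in SW480, 0 to 2 in DLD1, 0 to 2 in the difference and 7 to 10 between controls when libraries were left out in turn. For the other iron genes these ranges were 4 to 37, 0 to 30, 0 to 9 and 59 to 72. Calls over all genes moved as well. In SW480 they were 689 of 18001 without SW480 control 1 and 4347 of 18105 without DLD1 control 2. In DLD1 they were 3 of 18072 without DLD1 control 1 and 3791 of 18063 without DLD1 control 3. In the difference they were 596 of 18105 without DLD1 control 2 and 1508 of 18063 without DLD1 control 3. Between controls 12448 of 17572 genes were called with all libraries. With the GC and length trend removed, the difference had 3 called iron genes, and the other iron genes had 40 calls in SW480, 7 in DLD1 and 11 in the difference, beside 4982, 541 and 1441 of 17572 genes. With no filter the difference had 2 iron genes and 4 others, and DLD1 had 8 others, beside 837 and 855 of 36138 genes. In DESeq2 the difference had 1 iron gene and 5 others, and DLD1 had 12 others, beside 712 and 683 of 17572 genes. With DLD1 controls 2 and 3 both left out, the difference had 1 iron gene and 5 others, and the other iron genes had 38 calls in SW480 and 6 in DLD1, beside 627, 4722 and 589 of 18994 genes. With each line fitted alone, the other iron genes had 37 calls in SW480 and 0 in DLD1, beside 4783 of 15826 and 1 of 15294 genes. The cause was not tested.

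Values near 0 changed sign. In DLD1 with the GC and length trend removed, the log2 fold change was -0.16 for STEAP3, 0.065 for SLC40A1, 0.081 for IREB2 and 0.095 for FBXL5. With DLD1 controls 2 and 3 both left out it was -0.039 for FTL, 0.039 for SLC40A1 and 0.0085 for ACO1. With single libraries left out it ran from -0.070 to 0.27 for FTH1, -0.073 to 0.28 for FTL, -0.051 to 0.21 for STEAP3, -0.15 to 0.0078 for SLC40A1, -0.34 to 0.095 for IREB2 and -0.20 to 0.010 for FBXL5. In the difference it ran from -0.0044 to 0.35 for FTL, -0.052 to 0.10 for SLC11A2, -0.17 to 0.092 for NCOA4 and -0.43 to 0.0026 for IREB2. SLC11A2 was at -0.011 under median-of-ratios scaling and -0.0092 in DESeq2, and NCOA4 and IREB2 at 0.044 and 0.038 with the trend removed. Between controls TFRC and IREB2 were at 0.14 and 0.13 with the trend removed and ran from -0.29 to 0.10 and -0.31 to 0.13 with libraries left out.

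Whether replicate numbers pair the samples is not settled by these values. Deviations of same-numbered control and lactate libraries correlated at 0.10, -0.00022 and 0.17 in SW480 and at -0.07, 0.06 and 0.12 in DLD1. Those of different-numbered libraries ran from -0.23 to 0.13 in SW480 and from -0.12 to 0.06 in DLD1. With the replicate number as a block, the counts of iron genes were 3, 0, 0 and 7 and those of the other iron genes 15, 2, 0 and 62. Over all genes the block gave 2345, 184, 274 and 12582 calls, against 2183, 67, 128 and 12448 without it. Precision rests on 3 libraries a group.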
